A study of Mus musculus with 6 samples.

Results

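The 9 genes Isg15, Ifit1, Ifit3, Irf7, Stat2, Oas1a, Ddx58, Ifih1 and Rsad2 are interferon-stimulated genes, whose transcription rises when a cell senses viral-type nucleic acid or binds interferon. They were chosen by symbol from the 24411 genes of the table and were followed in soleus (Sol) muscle that had lost the histone demethylase LSD1 or kept it. None of the 9 passed the test for a difference between the genotypes. The fitted level was higher in LSD1-mKO mice for 5 of them and lower for 4. All 9 were detected in every mouse, at 6 to 212 estimated counts, and all 9 passed the expression filter that left 12828 genes for testing.

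Polyadenylated RNA was sequenced from the whole Sol of 3 wild type (WT) and 3 LSD1-mKO mice, 1 library per mouse. LSD1-mKO mice were Lsd1 flox/flox animals that also carried CreERT2 under the human ACTA1 promoter, which is active in differentiating and differentiated muscle cells, and WT mice were Lsd1-floxed animals without CreERT2. Both groups were labelled as C57BL/6 mice and were 8 weeks old when the experiment began, and both were given 75 mg/kg tamoxifen on 5 days, once they had spent 3 days in a wheel cage. They had the wheel for 38 days of voluntary wheel running (VWR). The series holds no sedentary mice, so the comparison is between genotypes after VWR only. Cells of the muscle that do not use this promoter keep Lsd1 in both groups. In bulk RNA, fewer cells of a type and less RNA per cell cannot be told apart.

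The libraries held 8940206 to 13798059 estimated counts, and WT replicate 1 was the shallowest. The targeted gene Kdm1a, which encodes LSD1, stood at 40.5, 38.2 and 33.6 CPM (counts per 1000000 counts, after TMM scaling of the library totals) in the WT mice and at 14.6, 16.6 and 16.6 CPM in the LSD1-mKO mice. Every LSD1-mKO mouse was below every WT mouse (log2 fold change -1.23, SE 0.11, edgeR quasi-likelihood test, adjusted p = 0.016). The adjusted p rose above 0.05 when 1 mouse was left out in 4 of 6 cases (WT replicate 2 or any LSD1-mKO mouse, edgeR adjusted p 0.111 to 0.209) and with a replicate block (0.299), while the log2 fold change stayed between -1.30 and -1.17. Of the 12828 genes, edgeR called 1 higher and 1 lower at an adjusted p under 0.05, which is 0.0078% of the genes tested in each direction and 0.0156% in all. DESeq2 called 33 higher and 9 lower, with no member among them. Muscle fiber markers summed to 101432 to 135685 CPM in the 6 libraries.

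Cells recognise double-stranded RNA through the sensors RIG-I and MDA5, encoded by Ddx58 and Ifih1. These signal to kinases that activate the transcription factors IRF3 and IRF7, which switch on the type I interferon genes. Secreted interferon binds its receptor, and the kinases JAK1 and TYK2 then activate the factor ISGF3, which contains STAT2 and IRF9. ISGF3 binds the interferon-stimulated response element (ISRE) in the promoters of its targets, which include the sensors and IRF7 themselves. In tumour cells, loss or inhibition of LSD1 is known to raise transcripts of endogenous retroelements and to start this response through double-stranded RNA. The comparison asks what the same genes did in muscle after LSD1 loss.

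All 9 genes had a promoter in the RefSeq table for build GRCm38.p6, which covers 250 bases before to 50 bases after each transcription start. The ISRE core was searched on both strands as GAAA, any 2 bases and GAAA, which reads TTTC, any 2 bases and TTTC on the other strand. It was present in 8 of the 9 windows, and in 3.44% of all 32851 promoters of the same length. In 6 genes the first match lay before the start, and in Ddx58 and Ifih1 the match lay after it, at positions 3 and 33. The window of Irf7 held no match to these letters. The stretches below are from the 4 genes with more than 1 match, from Rsad2 with 1 match before the start and from Ddx58 with 1 match after it. They are shown because this element was found in 8 of the 9 windows, and the capitals mark the matches, which overlap one another in Isg15 and Oas1a. Each is written 5′ to 3′ on the strand of the gene.
Isg15, chr4:156200855-156200916, minus strand: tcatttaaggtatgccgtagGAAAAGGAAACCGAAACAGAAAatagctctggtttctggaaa
Ifit1, chr19:34640765-34640833, plus strand: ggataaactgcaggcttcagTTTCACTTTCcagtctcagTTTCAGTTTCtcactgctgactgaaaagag
Ifit3, chr19:34583353-34583436, plus strand: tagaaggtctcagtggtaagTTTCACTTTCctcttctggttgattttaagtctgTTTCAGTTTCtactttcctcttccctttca
Oas1a, chr5:120907526-120907565, minus strand: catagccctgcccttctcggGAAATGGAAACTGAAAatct
Rsad2, chr12:26456543-26456592, minus strand: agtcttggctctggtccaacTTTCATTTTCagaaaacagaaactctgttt
Ddx58, chr4:40239804-40239833, minus strand: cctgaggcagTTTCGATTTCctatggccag
These letters are a description of the windows, and binding at them was not measured here.

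Ddx58 (chromosome 4, 40203773 to 40239828 in the GENCODE annotation of GRCm38) encodes RIG-I, a sensor of short double-stranded RNA and of RNA with a 5′ triphosphate. It stood at 7.72, 13.7 and 13.1 CPM in WT mice and at 15.7, 11.4 and 11.7 CPM in LSD1-mKO mice. LSD1-mKO replicate 1 was the highest and WT replicate 1 the lowest, while the other 4 mice lay within both groups' range. The difference was a log2 fold change of 0.16 (SE 0.23, 95% interval -0.37 to 0.68). Ifih1 (chromosome 2, 62595798 to 62646255) encodes MDA5, the sensor of long double-stranded RNA. It stood at 6.51, 11.3 and 11.7 CPM in WT mice and at 13.0, 9.55 and 11.6 CPM in LSD1-mKO mice, with the same mice at the ends of the order as for Ddx58. Its log2 fold change was 0.20 (SE 0.23, 95% interval -0.32 to 0.72). The small higher fitted level of both sensors rested on single mice: without WT replicate 1 it was -0.05 for Ddx58 and -0.01 for Ifih1, and without LSD1-mKO replicate 1 it was -0.01 for Ddx58.

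Irf7 (chromosome 7, 141262706 to 141266481) encodes the factor that amplifies type I interferon transcription. It stood at 5.91, 9.63 and 9.68 CPM in WT mice and at 6.58, 5.72 and 6.24 CPM in LSD1-mKO mice. WT replicates 2 and 3 were above all LSD1-mKO mice, and WT replicate 1 lay among them. The difference was a log2 fold change of -0.46 (SE 0.21, 95% interval -0.94 to 0.03), which was the widest departure from 0 among the 9 genes. The edgeR quasi-likelihood test gave an adjusted p = 0.766 (Benjamini-Hochberg) from an unadjusted p = 0.0621. Without WT replicate 1 the value was -0.64 (edgeR adjusted p = 0.198). The span of Irf7 overlaps Phrf1 on the opposite strand, which reached 366 counts in a library, and whether the reads were counted by strand is not given in the sources used here.

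Stat2 (chromosome 10, 128270559 to 128292849) encodes the ISGF3 subunit that is specific to the type I and type III interferon response. It stood at 9.52, 13.0 and 13.3 CPM in WT mice and at 9.69, 9.05 and 13.3 CPM in LSD1-mKO mice. Each group held mice at both ends of this range, and the log2 fold change was -0.17 (SE 0.19, 95% interval -0.62 to 0.27).

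Isg15 (chromosome 4, 156199424 to 156200818) encodes a ubiquitin-like protein that is joined to other proteins during the interferon response. It stood at 1.57, 0.990 and 0.711 CPM in WT mice and at 1.26, 1.52 and 1.30 CPM in LSD1-mKO mice. These values rest on 8 to 21 counts, and WT replicate 1 was the highest of the 6 mice. The log2 fold change was 0.36 (SE 0.36, 95% interval -0.47 to 1.19). Rsad2 (chromosome 12, 26442746 to 26456452) encodes viperin, an enzyme that makes a chain-terminating nucleotide. It stood at 10.97, 11.4 and 15.2 CPM in WT mice and at 12.5, 15.1 and 13.3 CPM in LSD1-mKO mice. The LSD1-mKO values lay inside the WT range, and the log2 fold change was 0.12 (SE 0.16, 95% interval -0.25 to 0.48), the narrowest interval of the 9.

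Ifit1 (chromosome 19, 34640871 to 34650009) and Ifit3 (chromosome 19, 34583531 to 34588731) lie in one cluster and encode proteins of one family. The Ifit1 protein binds foreign RNA ends. Ifit1 stood at 4.46, 4.86 and 5.77 CPM in WT mice and at 3.48, 3.84 and 5.22 CPM in LSD1-mKO mice. The groups overlapped through LSD1-mKO replicate 3, and the log2 fold change was -0.28 (SE 0.22, 95% interval -0.79 to 0.23). Ifit3 stood at 7.84, 14.3 and 12.8 CPM in WT mice and at 10.1, 10.7 and 10.1 CPM in LSD1-mKO mice. The 3 LSD1-mKO mice were close together between WT replicate 1 and the other WT mice, and the log2 fold change was -0.19 (SE 0.21, 95% interval -0.66 to 0.29). Without WT replicate 1 it was -0.39 (edgeR unadjusted p = 0.0166, adjusted p = 0.261). Oas1a (chromosome 5, 120896256 to 120907521) encodes an enzyme that, on double-stranded RNA, makes a short oligoadenylate messenger. It stood at 0.723, 1.53 and 1.78 CPM in WT mice and at 1.55, 1.01 and 2.51 CPM in LSD1-mKO mice, from 6 to 27 counts. Its groups overlapped, and the log2 fold change of 0.27 had the widest interval of the 9 (SE 0.44, 95% interval -0.74 to 1.28). Without LSD1-mKO replicate 3 it was -0.10.

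The genes Ifit3, Ifit1 and Oas1a each have a relative in the same family, Ifit3b, Ifit1bl2 and Oas1g, called copies here. How alike their sequences are was not measured. The estimated count of Ifit3 was not a whole number in 6 of 6 libraries, while the sum of Ifit3 and Ifit3b was whole to within 0.02 in 6 of 6. Counts of Ifit1 and of Oas1a were not whole to within 0.02 in 3 of 6 libraries each. Their sums with Ifit1bl2 and Oas1g were whole to within 0.02 in 6 of 6. Where both counts were whole, the sum had to be whole, so only the other libraries bear on this. Reads had therefore been divided between the copies, and the split is uncertain. With the copies summed, an alternative chosen after seeing the data, the log2 fold change was -0.16 for Ifit3, -0.17 for Ifit1 and 0.39 for Oas1a, and none passed the threshold.

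**Figure D1:**
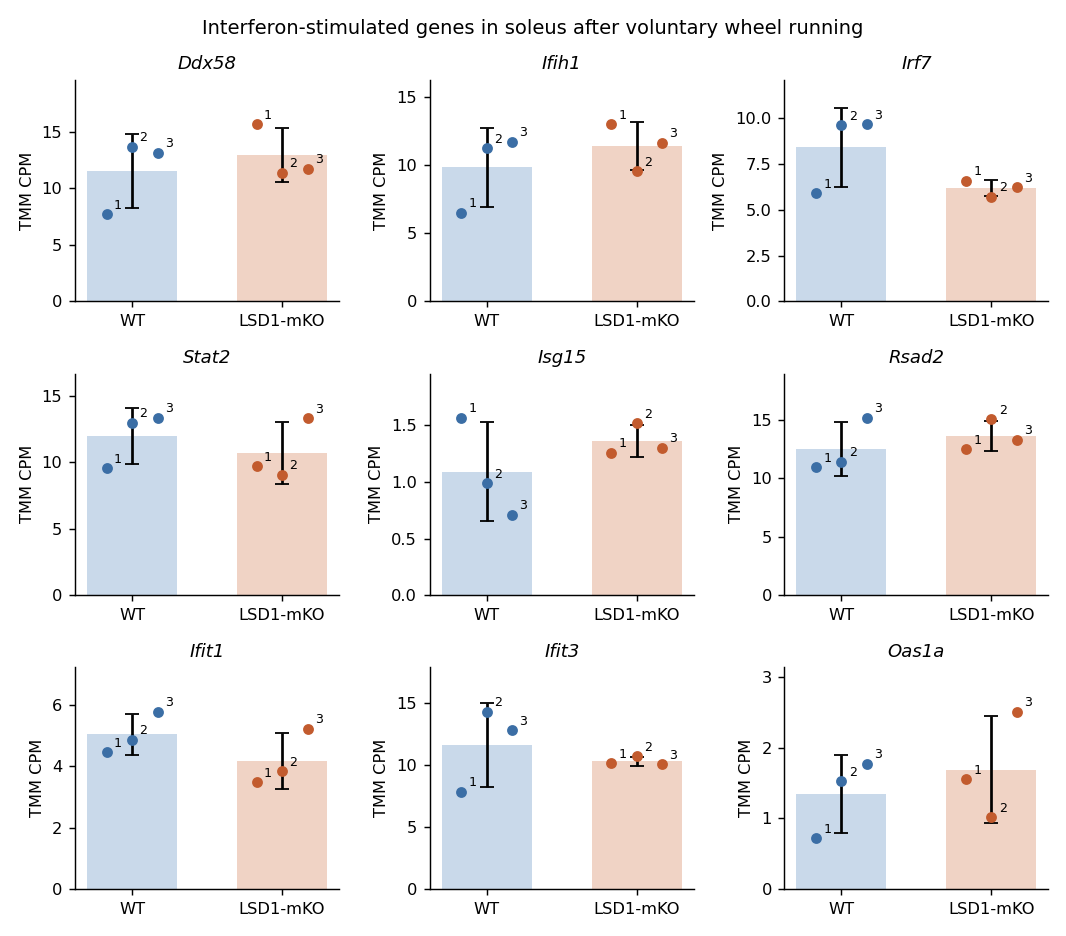
TMM-scaled CPM of the 9 interferon-stimulated genes in each mouse. Bars are the mean of 3 mice, error bars the SD, points single mice with their replicate number; the points of the genotypes overlap for all 9 genes, and WT mouse 1 is the lowest of 6 for 5 of them.

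The groups overlapped for 9 of 9 genes, while 12.7% of all genes tested had groups that did not overlap. No member passed an adjusted p of 0.05 in either direction in edgeR (0 of 9, against 0.0078% of all genes tested in each direction), where the values ran from 0.766 to 0.928, nor in DESeq2 or limma voom. No member had an unadjusted p under 0.05 either, against 6.4% of all genes tested. An exact two-sided permutation test over the mice gave p between 0.3 and 0.6 for the 9 genes, in a design of 3 against 3 where the smallest p possible is 0.1. The median log2 fold change of the members was 0.12, and that of all genes tested was -0.02. Of all genes tested, 45.2% were fitted higher in LSD1-mKO mice.

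The intervals bound what these libraries could have shown. The upper end of the 95% interval lay below a 2-fold rise for 7 of the 9 genes, the exceptions being the low-count genes Isg15 (up to 2.27-fold) and Oas1a (up to 2.43-fold). The lower end lay above a 2-fold fall for 9 of 9, with Irf7 nearest to it at 0.521-fold. A 1.5-fold rise lay outside the interval for 5 of 9 genes and a 1.5-fold fall for 4 of 9, so for the others a change of that size lay within the interval. These limits depend on single mice. Without WT replicate 1 the log2 fold change of Irf7 was -0.64 (SE 0.156). Without LSD1-mKO replicate 3 that of Oas1a was -0.098 (SE 0.463).

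**Figure D2:**
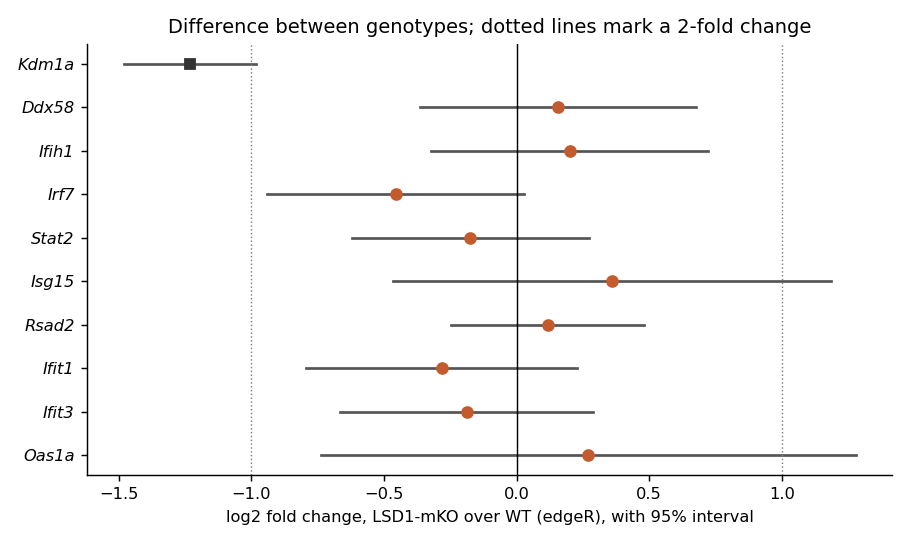
Fitted log2 fold change of LSD1-mKO over WT with its 95% interval from edgeR for the 9 genes and for Kdm1a. All 9 intervals include 0, and that of Kdm1a, around -1.23, does not.

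Levels were compared between genes per exon length. In TPM (transcripts per 1000000, computed from the counts and exon lengths), the WT mean was highest for Ifit3 at 15.1 ± 5.26 (SD, n = 3). Irf7 followed at 8.47 ± 2.67, Rsad2 at 7.39 ± 1.57, Ddx58 at 6.71 ± 2.31 and Stat2 at 6.09 ± 1.44 TPM. Ifit1 stood at 4.23 ± 0.741, Ifih1 at 4.05 ± 1.40, Isg15 at 3.16 ± 1.06 and Oas1a lowest at 1.60 ± 0.709 TPM. Each gene's range over the 6 mice overlapped that of the next gene in this order. The genes were measured in the same mice, so overlapping ranges do not decide whether neighbours differ. Ifit3 was above Irf7, Stat2 above Ifit1 and Isg15 above Oas1a in every mouse. In the other neighbouring pairs the order changed between mice.

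The summed level of the members spread more among WT mice than it differed between the genotypes. It was 55.2, 80.7 and 84.1 CPM in WT mice and 73.9, 67.8 and 75.3 CPM in LSD1-mKO mice, so that all LSD1-mKO sums lay within the WT range. WT replicate 1 was the lowest mouse for 5 of the 9 genes, and for 23.3% of all genes tested. Leukocyte and macrophage markers were also lowest in WT replicate 1 among the WT mice, summing to 173, 498 and 419 CPM there and to 319, 165 and 244 CPM in LSD1-mKO mice. Of the 15 such markers tested, 14 had a lower fitted level in LSD1-mKO mice, 3 of them at an unadjusted p under 0.05 (2.88% of all genes tested in that direction) and none at an adjusted p in edgeR. The leukocyte marker Ptprc stood at 3.01, 11.1 and 6.13 CPM in WT and 7.18, 3.18 and 3.91 CPM in LSD1-mKO mice, and the macrophage marker Cd68 at 2.77, 14.4 and 8.97 and at 12.2, 3.76 and 3.07 CPM. Fibroblast markers summed to 2288, 5076 and 6140 CPM in WT and 4256, 2618 and 2763 CPM in LSD1-mKO mice, with 9 of 9 lower in fitted level. Of all 12828 genes tested, 7027 had a lower fitted level. No fibroblast marker had an unadjusted p under 0.05 in edgeR, and the groups overlapped for all 9. Endothelial markers summed to 686 to 931 CPM in WT and 669 to 824 CPM in LSD1-mKO mice, and the plasmacytoid dendritic cell marker Siglech lay between 0.362 and 0.990 CPM. None of the 9 lymphocyte markers passed the expression filter, and together they reached at most 2.16 CPM in a library. LSD1-mKO replicate 2 had the lowest leukocyte marker sum of the 6 mice, and its member sum was above that of WT replicate 1. The part of other cell types in the levels of the 9 genes was not tested.

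**Figure D3:**
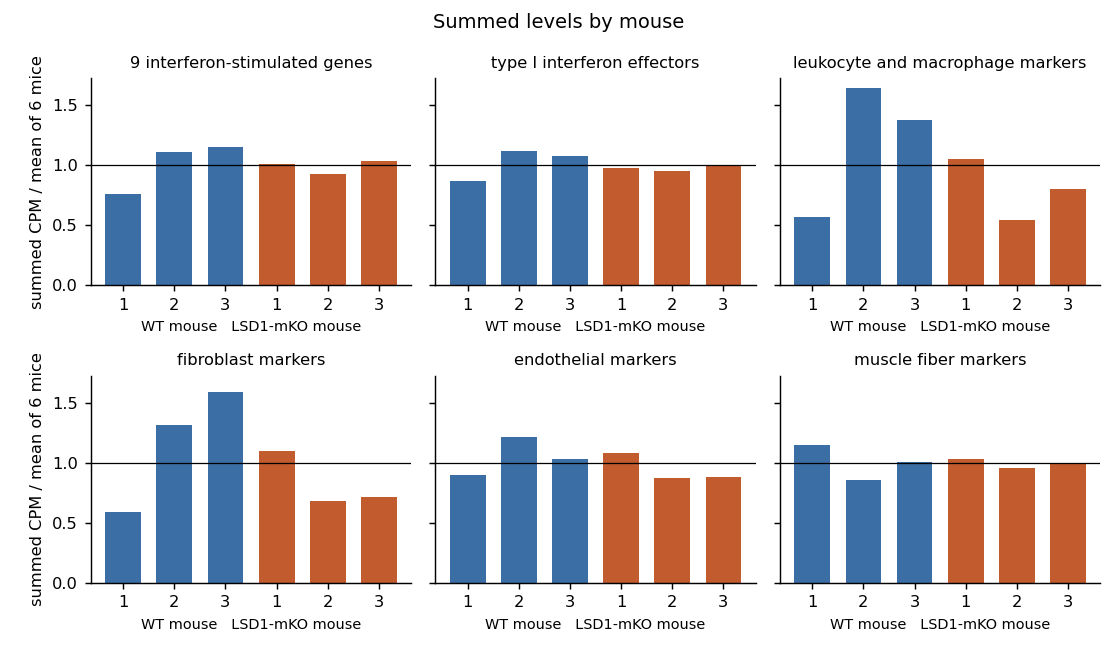
Summed CPM of the 9 genes, of the other type I interferon effectors and of 4 sets of cell type markers in each mouse, divided by the mean of the 6 mice. WT mouse 1 is below the mean for the 9 genes and for leukocyte, fibroblast and endothelial markers, and above it for muscle fiber markers.

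The other genes of the pathway are given below by their role, without the 9 members. Some genes, such as Irf9 and Irf2, stand in several of these lists, so the counts by role are not independent. Of the 21 interferon ligand genes in the table (type I, II and III), 18 were at 0 in every mouse. The remaining 3 had 1 count each, Ifna4 and Ifng in LSD1-mKO replicate 2 and Ifnab in LSD1-mKO replicate 1. A count of 0 allows a level of up to 0.217 to 0.361 CPM, depending on the library (3 counts of its scaled total, for counting error only).

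The receptor genes that passed the expression filter did not pass the test for a difference. Ifnlr1, the other chain of the type III receptor, was below the filter. Its mean was 0.359 CPM in WT and 0.440 CPM in LSD1-mKO mice. Of 5 receptor genes tested, 2 had a higher and 3 a lower fitted level, with a median log2 fold change of -0.01. The interferon gamma receptor genes Ifngr1 and Ifngr2 stood at 65.4 ± 9.36 and 54.6 ± 5.83 CPM in WT and at 64.4 ± 6.99 and 59.7 ± 4.00 CPM in LSD1-mKO mice (SD, n = 3). Il10rb, the shared chain of the type III receptor, stood at 14.7 ± 4.86 and 15.3 ± 1.19 CPM. The kinases Jak1, Jak2 and Tyk2 and the ISGF3 subunit Irf9 lay between a log2 fold change of -0.10 and 0.07, with 0 of 4 past an unadjusted p of 0.05. Irf9, the DNA-binding subunit, stood at 9.52, 15.3 and 15.2 CPM in WT and 12.7, 10.8 and 14.9 CPM in LSD1-mKO mice. It was lowest in WT replicate 1, and Stat2 was lower there than in the other WT mice.

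Among 11 other nucleic acid sensors and adaptors, 0 passed an adjusted p of 0.05 in edgeR and 2 had an unadjusted p under 0.05 in the lower direction, a call made for 2.88% of all genes tested. These were Unc93b1, which carries the endosomal Toll-like receptors, and Aim2, a sensor of cytosolic DNA. Unc93b1 stood at 11.5, 27.8 and 21.1 CPM in WT and 13.8, 10.4 and 12.9 CPM in LSD1-mKO mice (log2 fold change -0.72, SE 0.28, edgeR adjusted p = 0.729). Aim2 stood at 1.33, 2.52 and 2.49 CPM in WT and 0.740, 1.16 and 1.49 CPM in LSD1-mKO mice, from 10 to 28 counts (log2 fold change -0.94, SE 0.37, edgeR adjusted p = 0.733). The groups overlapped for both, and for both the WT mice came in the same order, lowest to highest, as in the leukocyte marker sums above. The LSD1-mKO mice did so for Unc93b1 and not for Aim2. The part of leukocytes in these levels was not tested. Mb21d1, which encodes the DNA sensor cGAS, stood at 1.30 ± 0.320 and 0.722 ± 0.503 CPM, from 2 to 18 counts.

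Of 10 IRFs and their kinases besides Irf7, 3 had a higher and 7 a lower fitted level (median log2 fold change -0.10), none at an unadjusted p under 0.05. Irf8, a factor of macrophages and dendritic cells, stood at 2.89, 7.02 and 7.64 CPM in WT and 4.00, 3.55 and 3.45 CPM in LSD1-mKO mice, with WT replicate 1 the lowest of the 6. Tank, an adaptor of the IRF kinases, and Irf2, a repressor of interferon targets, had log2 fold changes of 0.18 (SE 0.11) and -0.22 (SE 0.14).

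The other type I interferon effectors were the longest list, with 51 of 65 genes tested. Of these, 15 had a higher and 36 a lower fitted level, with a median log2 fold change of -0.08. This count moved with single mice, from 9 higher without WT replicate 1 to 28 higher without WT replicate 2. The effectors summed to 697, 905 and 871 CPM in WT and 789, 770 and 801 CPM in LSD1-mKO mice. No effector passed an adjusted p in edgeR, and 2 had an unadjusted p under 0.05, both lower, a call made for 2.88% of all genes tested. Parp10, a mono-ADP-ribosyltransferase, stood at 11.2, 13.9 and 12.8 CPM in WT and 6.95, 9.12 and 10.1 CPM in LSD1-mKO mice, with no overlap between the groups (log2 fold change -0.54, SE 0.17, edgeR adjusted p = 0.631). Slfn2, a gene of lymphoid and myeloid cells, stood at 6.15 ± 1.68 and 3.87 ± 1.00 CPM. Isg20, an exonuclease of RNA, stood at 1.57, 1.62 and 1.42 CPM in WT and 2.00, 2.03 and 3.26 CPM in LSD1-mKO mice, also without overlap (log2 fold change 0.64, SE 0.30, edgeR adjusted p = 0.766). Groups did not overlap in the higher direction for 6.63% and in the lower direction for 6.1% of all genes tested, against 2 and 3 of these 51.

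The relatives of the members in the Ifit and Oas families did not pass the test either. Ifit2 stood at 7.11, 14.9 and 17.0 CPM in WT and 12.3, 12.4 and 11.5 CPM in LSD1-mKO mice, a pattern over the WT mice like that of Ifit3 with WT replicate 1 lowest. Its log2 fold change was -0.12 (SE 0.27), and that of Ifit3b was -0.10 (SE 0.38). Oas2 stood at 4.84 ± 0.291 and 4.28 ± 0.889 CPM and Oasl2 at 6.06 ± 2.75 and 5.53 ± 0.873 CPM in WT and LSD1-mKO mice. Oas1b stood at 1.02 ± 0.194 and 0.998 ± 0.593 CPM. All 5 tested relatives in these families had a lower fitted level and an edgeR unadjusted p of at least 0.399. Among relatives below the expression filter, which were not tested, Oasl1 stood at 0.964, 0.810 and 1.33 CPM in WT and 0.444, 0.507 and 0.373 CPM in LSD1-mKO mice, each LSD1-mKO mouse below each WT mouse. Ifit1bl2, the copy of Ifit1, went the other way without overlap, at 0, 0.09 and 0 CPM in WT and 0.666, 0.217 and 0.186 CPM in LSD1-mKO mice, from at most 9.13 estimated counts in a library. Ifit1bl1, Oas1c, Oas1g and Oas3 had group means of at most 0.768 CPM.

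Targets of interferon gamma were split, with 13 of 25 tested genes higher and 12 lower in fitted level, a median of 0.07 on the log2 scale and none at an unadjusted p under 0.05. Irgm1, a GTPase that acts on vacuoles of intracellular microbes, stood at 23.8 ± 4.00 and 27.6 ± 4.21 CPM, and Gbp3, a guanylate-binding protein, at 13.9 ± 3.86 and 10.6 ± 2.22 CPM. Ciita, the activator of MHC class II genes, ranged from 0.121 to 3.60 CPM within the WT group alone.

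Of 15 inhibitors of the pathway, 6 had a higher and 9 a lower fitted level (median log2 fold change -0.15), and 0 passed an adjusted p in edgeR. One gene had an unadjusted p under 0.05 in each direction. Nlrc3, which dampens signalling by the DNA sensor adaptor STING, stood at 13.4, 13.2 and 13.9 CPM in WT and 19.7, 16.6 and 20.2 CPM in LSD1-mKO mice, so that every LSD1-mKO mouse was above every WT mouse. Its log2 fold change was 0.48 (SE 0.12, edgeR unadjusted p = 0.00317, adjusted p = 0.485), and an unadjusted p under 0.05 in the higher direction was reached by 3.52% of all genes tested. Socs3, an inhibitor of JAK kinases that cytokines induce, stood at 4.46, 4.86 and 13.5 CPM in WT and 4.29, 2.46 and 3.26 CPM in LSD1-mKO mice. Every LSD1-mKO mouse was below every WT mouse. WT replicate 3 set most of this difference, which was a log2 fold change of -1.20 (SE 0.45, edgeR adjusted p = 0.723) with it and -0.48 without it. An unadjusted p under 0.05 in the lower direction was reached by 2.88% of all genes tested. Groups did not overlap in the higher direction, as for Nlrc3, for 6.63% of all genes tested. In the lower direction, as for Socs3, this held for 6.1%. Ptpn6, a phosphatase of blood cells, stood at 2.71 ± 1.82 and 1.44 ± 0.582 CPM.

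Genes of small RNA silencing and of retroelement silencing were measured as well. Of 9 genes of the small RNA silencing complex, 4 had a higher and 5 a lower fitted level, and none had an unadjusted p under 0.05. Ago2, the slicer, stood at 37.7 ± 1.32 and 41.0 ± 6.29 CPM, Tarbp2, a partner of Dicer, at 34.4 ± 1.84 and 31.5 ± 0.987 CPM, and Drosha, which cuts primary microRNAs, at 73.9 ± 9.21 and 85.7 ± 1.08 CPM. Of 14 genes of retroelement silencing, 5 had a higher and 9 a lower fitted level, 2 of the latter at an unadjusted p under 0.05 (2.88% of all genes tested in that direction) and none at an adjusted p in edgeR. Uhrf1, which guides maintenance DNA methylation, stood at 2.65, 2.43 and 4.00 CPM in WT and 2.00, 1.09 and 0.931 CPM in LSD1-mKO mice. These values rest on 10 to 45 counts (log2 fold change -1.16, SE 0.36, edgeR adjusted p = 0.631). Dnmt1, the maintenance methyltransferase, stood at 18.4, 20.9 and 19.3 CPM in WT and 18.1, 15.5 and 14.3 CPM in LSD1-mKO mice (log2 fold change -0.29, SE 0.12, edgeR adjusted p = 0.766). For both, and for Trim28, which was singled out after its values were seen and had a log2 fold change of -0.12, every LSD1-mKO mouse was below every WT mouse. Over all genes tested this held for 6.1%, and here for 3 of 14. Transcripts of retroelements were not analysed here.

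**Figure D4:**
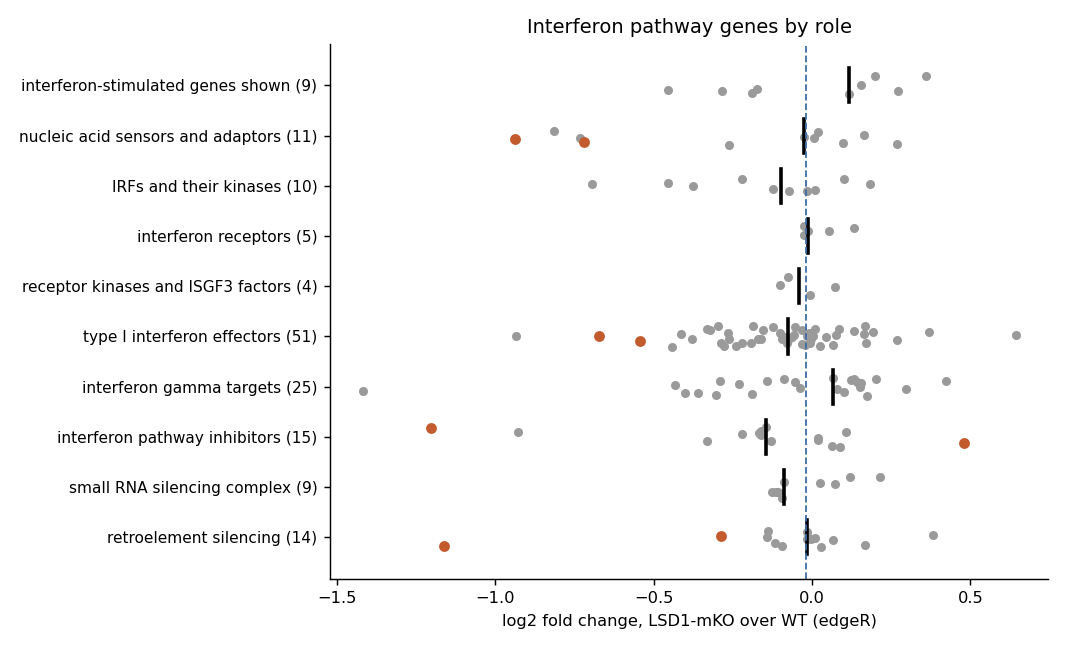
Fitted log2 fold change of LSD1-mKO over WT for each tested gene of the lists, with the number tested in brackets; points are genes, orange where the unadjusted p is under 0.05, black bars list medians, and the dashed line the median of all genes. The medians of the lists drawn lie between -0.15 and 0.12, and no gene drawn passed an adjusted p of 0.05. A gene that stands in several of these lists is drawn in each.

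The genes whose pattern over the 6 mice was most like the mean of the members were Adrbk2, Alpk1, Fam208a, Chsy1 and Kdelc2. The measure was the root mean square difference between z-scores of log2 CPM over 12630 genes whose mean reached 1 CPM, and it ran from 0.0833 for Adrbk2 to 0.148 for Kdelc2. Adrbk2, a kinase of G protein-coupled receptors, stood at 4.22, 6.66 and 6.84 CPM in WT and 5.77, 5.36 and 6.43 CPM in LSD1-mKO mice. As in the summed level of the members, its lowest mouse was WT replicate 1 and its LSD1-mKO values lay within the WT range. Alpk1, a kinase that senses a bacterial sugar, stood at 1.93, 4.23 and 4.71 CPM in WT and 3.03, 3.18 and 4.10 CPM in LSD1-mKO mice. With 6 mice and this many genes, some genes match any pattern closely, and the likeness is given as a description.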

How the data were processed

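Reads of 75 bases, from single ends, had been aligned by the authors with STAR (build mm10). The deposited values are estimated counts without normalization, and 8.33 to 9.94% of them per library were not whole numbers. The counting tool, its annotation and its use of strand are not given in the sources used here. The authors' table of DESeq2 fold changes and p-values was not used. Groups came from the sample titles. Nothing says more of the mice's independence, so p-values measure the spread between these libraries.

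Counts were rounded and tested with edgeR 4.0.16 in R 4.3.3 (TMM, filterByExpr by genotype, quasi-likelihood test, Benjamini-Hochberg adjustment over 12828 genes, threshold 0.05). DESeq2 1.42.0, limma 3.58.1 (voom), other scalings and filters, a replicate block and leaving out each mouse were alternatives, and the fit was tested on simulated data. TPM used GENCODE exon lengths, matched for 23353 symbols directly and 668 by an older symbol, with 390 unmatched. Some pathway genes are not reported here. The 9 genes, the lists and the tests were chosen with earlier results of these data known, so no p is adjusted over a list. Named genes were the members, Kdm1a, up to 3 genes of lowest unadjusted p per list, the Ifit, Oas and ISGF3 genes, the 5 most alike in pattern and 4 defining markers. Same-numbered mice of the groups did not deviate together (correlations -0.352, -0.107 and -0.15), so numbers were not taken as pairs. Intervals and floors cover counting error or the spread of 3 mice only. Promoters came from RefSeq (GRCm38.p6) and gene spans from GENCODE.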

Additional observations from a re-analysis of the deposited data

How the results depend on the processing

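The fitted direction of the 9 genes was the same in 79 of 79 comparisons that kept all 6 mice, and in 50 of 54 that left out 1. None passed an adjusted p of 0.05 under any alternative (lowest 0.198). The 4 reversals were Ddx58 (-0.0489 without WT replicate 1, -0.00746 without LSD1-mKO replicate 1), Ifih1 (-0.00986 without WT replicate 1) and Oas1a (-0.0976 without LSD1-mKO replicate 3), whose log2 fold changes ranged from -0.0489 to 0.298, -0.00986 to 0.344 and -0.0976 to 0.554. Members with a higher fitted level numbered 3 to 5 with 1 mouse left out, and 3 with a minimum of 10 counts in every sample, where Isg15 and Oas1a were not tested. Members at an unadjusted p under 0.05 in the lower direction numbered 0 to 2, the 2 (Irf7 and Ifit3) without WT replicate 1. Depth limits Isg15 and Oas1a most.

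When single mice were left out, Kdm1a ran from a log2 fold change of -1.30 to -1.17 (adjusted p above 0.05 in 4 of 6 fits), genes called higher from 1 to 2 and genes called lower from 0 to 1. Genes called higher numbered 33 with DESeq2, 2 with limma voom and 8 with no filter on low counts, and genes called lower 9 with DESeq2 and 3 with no filter. With the replicate block, Kdm1a stood at -1.23 (edgeR adjusted p = 0.299), genes called lower numbered 0, and Adrbk2 (0.000280) and Chsy1 (0.00859) reversed; no member's call changed. Jak2 reversed with DESeq2 (0.00250), DESeq2 size factors (0.00191) and no filter (0.00975), and Fam208a with library size alone (-0.0197). Other genes with a higher fitted level numbered 4 of the receptors with no filter, 2 of the receptor kinases and ISGF3 factors with DESeq2, its size factors or no filter, 3 of the sensors with library size alone, and 2 each of the Ifit and Oas families with no filter. With 1 mouse left out they numbered 1 to 4 (receptors), 2 to 3 (receptor kinases and ISGF3 factors), 3 to 7 (sensors), 2 to 5 (IRFs), 9 to 28 (type I effectors), 4 to 17 (gamma targets), 3 to 7 (inhibitors), 0 to 1 (Ifit family), 0 to 2 (Oas family), 2 to 5 (small RNA silencing) and 4 to 7 (retroelement silencing). Leaving out 1 mouse also reversed Il10rb (-0.0794 to 0.364), Ifngr1 (-0.125 to 0.0776), Tyk2 (-0.22 to 0.0150), Irf9 (-0.259 to 0.0425), Ifit2 (-0.399 to 0.112), Ifit3b (-0.422 to 0.211), Oasl2 (-0.464 to 0.0537), Ago2 (-0.00420 to 0.219), Oas1b (-0.613 to 0.227), Jak2 (-0.0812 to 0.0835), Ptprc (-0.951 to 0.0394), Cd68 (-1.36 to 0.0930), Adrbk2 (-0.208 to 0.0868), Alpk1 (-0.385 to 0.121), Fam208a (-0.0744 to 0.0792), Chsy1 (-0.230 to 0.109) and Kdelc2 (-0.344 to 0.0871). The cause was not tested.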

Other observations

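The ISRE core searched for in the members was also present in the promoters of 338 other tested genes. Of these, 39.1% were fitted higher in LSD1-mKO mice, the median was -0.03 on the log2 scale and 5.92% had an unadjusted p under 0.05. Among the 9386 other tested genes whose promoters lack these letters, 45.5% had a higher fitted level, the median was -0.02 and 6.2% had an unadjusted p under 0.05. One gene with the core passed an adjusted p of 0.05 in edgeR. It was Esr1, the estrogen receptor gene, with a log2 fold change of 4.15 (edgeR adjusted p = 0.000195), named here after its value was seen. The Cre recombinase of the LSD1-mKO mice is fused to part of an estrogen receptor, and the share of these reads that came from the transgene was not tested.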
